A study of Arabidopsis thaliana with 6 samples.

Results

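The genes described here were more abundant in every library of an Arabidopsis thaliana chromatin mutant than in any library of the wild type, by a factor of 2 or more. They were chosen by their own counts: the mean level in the mutant had to reach 1 CPM (CPM, the count times 1000000 over the library's total), and the lowest mutant CPM had to be at least 2 times the highest wild-type CPM. The count table held 38064 genes; 18305 of them reached a mean mutant level of 1 CPM, and 158 of these met the rule, which is 0.863%. The mirrored rule, with the genotypes exchanged, was met by 99 of 18229 genes, or 0.543%. Because the difference between the genotypes chose the members, their levels and fold changes are given as a description and not as a test of that difference.

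Polyadenylated RNA came from seedlings grown on MS plates in darkness at 22 °C for 5 days, with 3 libraries of the wild type Col-0 and 3 of the double mutant bdh1-1 bdh2-1. The mutated genes encode BCL-domain homolog proteins, which the series title links to the stability of the SWI/SNF complex. The sample labels name etiolated seedlings, and the series' design text names hypocotyls. The labels do not say whether the 3 libraries of a group came from separately grown plants, so the spread between them may be technical. The libraries held between 40876788 and 44982000 counts. The loci AT4G22320 and AT5G55210 were assigned to the BDH names from general knowledge of the literature, since neither the tables nor the annotation pairs them. AT4G22320 had 169, 143 and 148 counts in the wild type and 8, 12 and 15 in the mutant, and AT5G55210 had 693, 575 and 755 counts against 7, 14 and 22. Both loci overlap a gene on the opposite strand, and the strand setting of the counting is not given in the sources used here.

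SWI/SNF complexes use ATP to slide or evict nucleosomes, and in plants they act on promoters of genes for development, hormone response and stress. In a dark-grown seedling the hypocotyl elongates, the cotyledons stay closed and greening is held back. Suberin is a polyester of fatty acids, fatty alcohols and phenolics laid down in the walls of root endodermis and periderm. Lipid transfer proteins are small secreted proteins that carry or bind lipids at the cell surface, and triterpenes such as marneral and thalianol are root compounds whose biosynthetic genes lie side by side in the genome.

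The members were mostly genes of low abundance. Their mean level in the mutant ran from 1.00 to 178 CPM with a median of 4.64 CPM; 49 members reached 10 CPM and 40 stayed under 2 CPM. The ratio of the lowest mutant to the highest wild-type CPM had a median of 2.63 and a highest value of 24.7. It was under 2.5 for 69 members, under 3 for 100, at least 4 for 32 and at least 10 for 5. The log2 fold change fitted by edgeR lay between 1.24 and 5.39, with a median of 2.00. In bulk RNA, more cells of a type and more RNA per cell cannot be told apart, and this holds for every level given here.

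**Figure D1:**
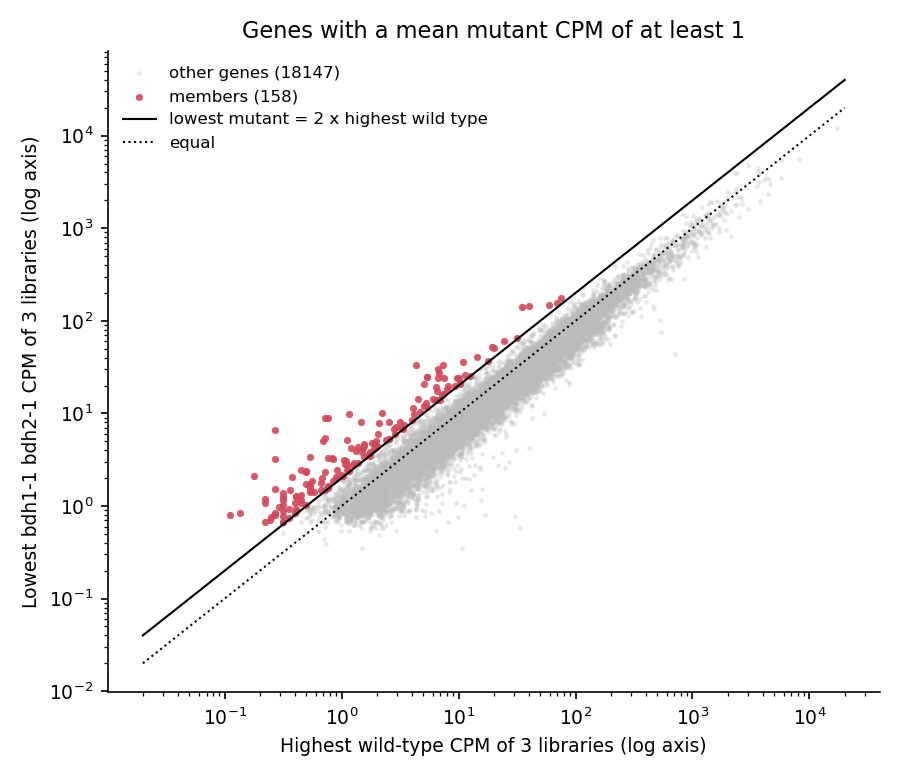
Each point is a gene with a mean mutant level of at least 1 CPM, placed by its highest wild-type CPM (horizontal, log axis) and its lowest mutant CPM (vertical, log axis). The 158 members, in red, lie on or above the solid line at a ratio of 2, most of them close to it and at the low end of both axes, and the dotted line marks equal values.

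At the limit of the rule, members and non-members had nearly the same values. Just inside were CHIL with a ratio of 2.004, MLP-300B with 2.009 and THAS1 with 2.014. Just outside were NIC3 with a ratio of 1.996, EDF3 with 1.990 and SBT3.12 with 1.980. Moving the ratio from 2 to 1.5 gave 419 genes, and moving it to 3 gave 58.

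The libraries of a group were not equally tight. The median standard deviation over the members was 24.1% of the mean in the wild type and 14.1% in the mutant, against 10.1% and 9.81% over all genes with a mean mutant level of 1 CPM. Wild-type replicate 2 held the highest wild-type value for 88 of the 158 members, or 55.7%, against 31.2% of all such genes. In 37 members, or 23.4%, its CPM was at least 2 times that of wild-type replicate 1, against 0.781% of all such genes. These comparisons were not matched for level. The median wild-type mean was 0.999 CPM for the members and 17.3 CPM for all such genes, and low counts vary more. How much of the gap this makes was not tested. The summed level of the members was 536, 747 and 611 CPM in wild-type replicates 1, 2 and 3, and 2270, 2300 and 2420 CPM in the mutant replicates. Without wild-type replicate 2 the rule found 235 genes. All 158 members were among them by construction, since leaving out a wild-type library cannot raise the highest wild-type value.

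Among the most abundant members were enzymes of lipid metabolism and secreted proteins. ADS1, an acyl-lipid desaturase, stood at 59.6, 75.2 and 64.5 CPM in the wild type and 176, 180 and 176 CPM in the mutant, a rise in the group mean from 66.4 ± 7.98 to 178 ± 2.31 CPM (SD, n = 3 in each group). AT3G22600, a lipid transfer protein, stood at 48.9, 69.4 and 58.6 CPM against 156, 154 and 199 CPM. The 3 mutant libraries of ADS1 lay close together, while mutant replicate 3 was the highest for AT3G22600. AT1G49570, a class III peroxidase, had 36.9, 59.8 and 44.1 CPM in the wild type and 187, 150 and 172 CPM in the mutant. A further peroxidase, AT5G17820, had a mean of 27.2 ± 4.91 CPM in the wild type and 67.9 ± 4.62 CPM in the mutant (SD, n = 3). Such peroxidases act in the cell wall, where some of them join phenolic units.

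AZI1, a lipid-transfer-like protein with a known role in priming systemic immunity, had 22.9, 35.1 and 25.4 CPM in the wild type and 147, 141 and 194 CPM in the mutant. The aspartyl protease AT5G10770 had 23.2, 39.7 and 28.4 CPM against 145, 143 and 145 CPM. In both genes the lowest mutant value was more than 3 times the highest wild-type value, which was again that of replicate 2. The other genes among the 10 most abundant were the methyltransferase AT4G33120, the protease-inhibitor-like DR4, the dehydrogenase SDR4 and the lipid-recognition protein AT5G23830, with mutant means of 64.5, 54.2, 53.0 and 41.3 CPM.

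The largest ratios were seen in genes that were nearly undetected in the wild type. AT2G01422, annotated as a non-coding RNA, had 0, 10 and 12 counts in the wild type and 300, 274 and 322 counts in the mutant, and its ratio of 24.7 was the highest among the members. AT5G04120, of the phosphoglycerate mutase family, had 8, 32 and 26 counts against 402, 721 and 583. The mutant values of the first gene lay close together, while those of the second spread from 8.94 to 17.6 CPM. Uncharacterized protein genes followed: AT1G75945 had 0, 12 and 2 counts against 146, 157 and 218, AT3G29633 had 8, 6 and 4 against 130, 86 and 144, and AT5G42530 had 6, 34 and 13 against 606, 542 and 400. AT5G04130 overlaps AT5G04120 on the other strand.

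Next in this order were genes with an assigned function. UMAMIT14, which exports amino acids, had 0.223, 1.16 and 0.764 CPM in the wild type and 11.0, 11.0 and 9.83 CPM in the mutant. CYP710A4, a cytochrome P450 of the family that desaturates the sterol side chain, had 0.447, 4.31 and 1.62 CPM against 37.3, 36.4 and 33.2 CPM. The wild-type libraries of CYP710A4 differed from each other far more than the mutant libraries did. CYP710A4 matches its neighbour AT2G28850 at 95.9% identity over 1511 bases, so reads may have been divided between them. The last 3 of the 10 were AT2G34700, a pollen allergen and extensin family gene with a ratio of 7.52, the glycine-rich AT5G33390 with 7.15 and the methyltransferase AT5G37990 with 7.12, which had 4, 0 and 5 counts in the wild type.

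**Figure D2:**
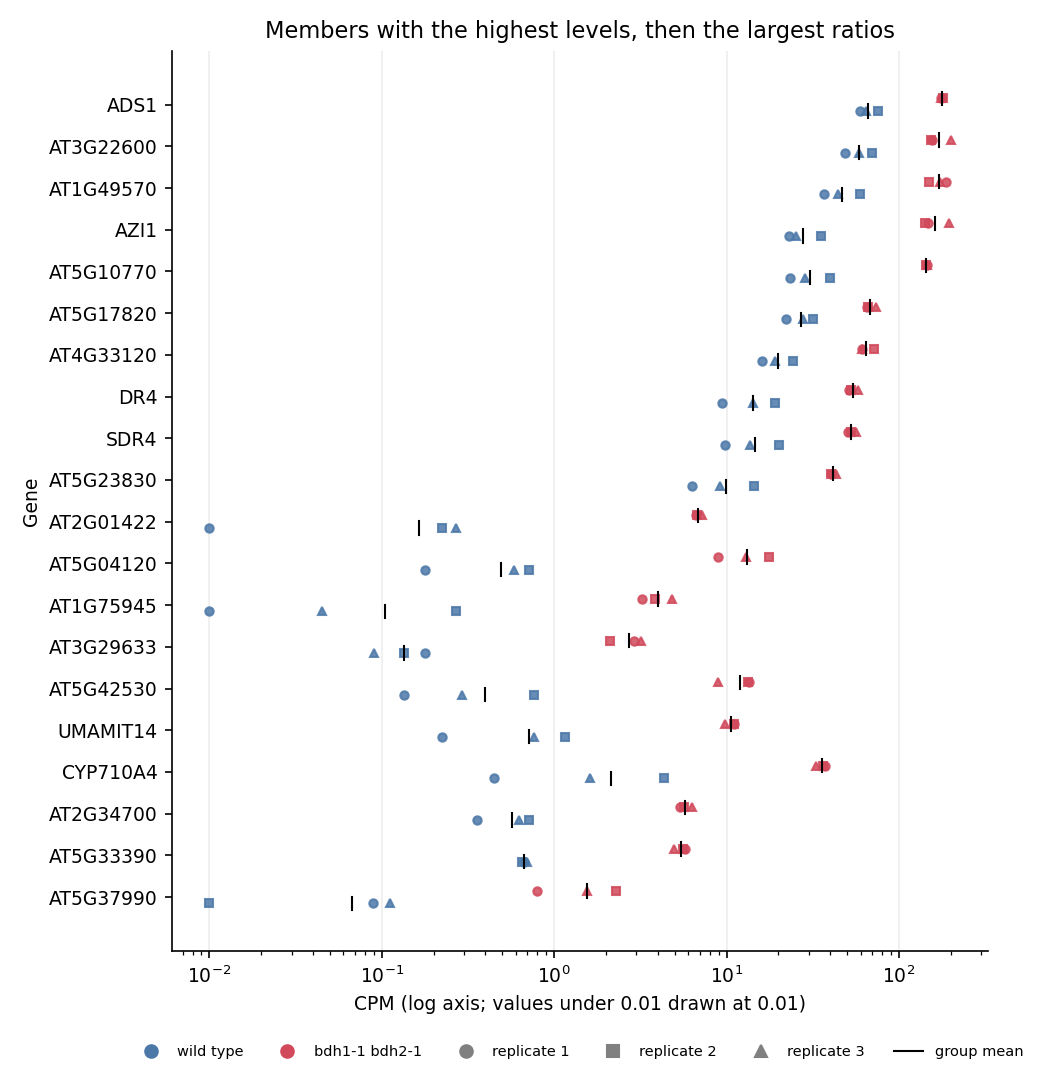
CPM (log axis) of the 10 members with the highest mean mutant level, followed by the 10 with the largest ratio of lowest mutant to highest wild-type CPM. Symbols mark the replicates, black bars the group means, and values under 0.01 CPM are drawn at 0.01; the wild-type points spread more widely than the mutant points in CYP710A4 and UMAMIT14 but not in AT5G33390, and replicate 2 (square) is the highest wild-type point in all of the upper 10.

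No member was silent in the wild type. None had 0 counts in all 3 wild-type libraries, and none had 3 counts or fewer in each of them. With a floor of 10 counts 6 members counted as silent, and 7 members had 0 counts in at least 1 wild-type library. The wild-type mean was under 0.1 CPM for 1 member, under 0.25 CPM for 20, under 0.5 CPM for 51 and under 1 CPM for 80, and it reached 10 CPM for 13. Its median was 0.999 CPM, against 17.3 CPM for all genes with a mean mutant level of 1 CPM. Of the 18305 such genes 403 had a wild-type mean under 1 CPM, so 80 of those 403 were members. A gene with a low wild-type level could meet the rule through a mutant level of 1 CPM, and this follows from the rule itself.

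By biotype, 148 members were protein coding, which is 93.7% against 97.4% of the genes with a mean mutant level of 1 CPM. The other 10 were 6 pseudogenes, 2 non-coding RNAs and 2 long non-coding RNAs. Pseudogenes made up 3.80% of the members and 0.514% of the expressed genes, and 6 of the 94 expressed pseudogenes, or 6.38%, were members. None of the 68 expressed genes annotated as transcribed pseudogenes was a member. Among the 99 genes of the mirrored rule 15 were not protein coding, which is 15.2%, so a share above the background was present in both directions.

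The most abundant of the non-coding members was AT5G35935, a pseudogene with 4.91, 5.34 and 4.02 CPM in the wild type and 28.7, 25.0 and 27.4 CPM in the mutant. AT5G33395, also a pseudogene, had 1.43, 1.47 and 1.15 CPM against 8.71, 8.05 and 8.03 CPM. Both were tight in each group, with replicate 2 of the wild type close to replicate 1. The remaining pseudogenes were AT3G42806, AT3G21030, AT1G45020 and AT3G21040. The non-coding RNA AT4G04223 had 5.16, 9.09 and 9.62 CPM against 25.7, 24.4 and 30.7 CPM, and it matches AT3G56210 at 99.1% identity, so its counts are uncertain. The long non-coding RNAs AT2G08735 and AT5G03925 reached mutant means of 1.72 and 1.11 CPM.

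By family, lipid transfer proteins were the largest group with a named function. Of the 47 genes of this family with a mean mutant level of 1 CPM 11 were members, which is 23.4%, and 0 met the mirrored rule. They were AT3G22600, AT4G33550, AT5G05960, AT2G48130, AT3G53980, AT2G37870, AT4G12545, LTP3, AT4G22610, AT5G13900 and EARLI1. AT4G33550 had 8.89, 11.0 and 10.2 CPM in the wild type and 37.2, 35.9 and 48.2 CPM in the mutant, and LTP3, a cell-surface lipid transfer protein, had 62, 22 and 28 counts against 328, 176 and 440. AZI1 and AIR1 have a related domain but were not counted, because their annotated names do not carry the family's.

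Other families had fewer members. GDSL lipases and esterases, many of which act on lipids outside the cell, had 5 members of 56 expressed genes, ESM1, GLIP4, AT2G23540, AT1G74460 and AT3G50400. Cytochromes P450, the oxygenases of lipid and specialised metabolism, had 5 members of 128: CYP710A4, CYP705A12, CYP705A30, CYP86A1 and PAD3, which completes the synthesis of the defence compound camalexin. Transporters had 6 members of 463, among them UMAMIT14, ABCG6, ABCG16 and the sugar-transporter-like AT3G05155, and proteases or their inhibitors had 4 of 378. MYB factors, peroxidases and xyloglucan endotransglucosylases, which remodel wall xyloglucan, had 2 each. NAC, WRKY, AP2/ERF, bHLH and MADS-box factors had 0 members of 53, 42, 53, 85 and 20 expressed genes, and F-box, histone and ribosomal protein genes had 0 of 148, 85 and 302. With 0.863% of all expressed genes meeting the rule, a count of 0 in a family of this size is near the background. A further 30 members were annotated as uncharacterized, hypothetical or of unknown function, which is 19.0% of the members against 9.82% of the expressed genes.

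Of the pathway lists used here, the suberin list held the most members. The list of 24 suberin enzymes, transporters and regulators was written after the members had been seen, so its count of members supports nothing. It held 8 members, and 15 of its 21 tested genes were higher at an adjusted p under 0.05 (edgeR quasi-likelihood, Benjamini-Hochberg), with 0 lower. In that test 12.1% of all 20791 tested genes were higher and 11.3% lower in the mutant. Of the 13 tested suberin genes that were not members 7 were higher, and their median log2 fold change was 0.80, against 0.00 over all tested genes; they too were listed with earlier results known.

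The members of the list covered several steps. GPAT5, an acyltransferase that makes the glycerol esters of root suberin, had 32, 48 and 20 counts in the wild type and 128, 154 and 188 in the mutant. Its relative GPAT7 had 8, 10 and 14 counts against 40, 50 and 48, and CYP86A1, the fatty acid omega-hydroxylase of root suberin, had 24, 62 and 34 counts against 130, 163 and 234. The mutant means of GPAT7 and CYP86A1 were 1.06 ± 0.167 and 4.03 ± 1.16 CPM (SD, n = 3). FAR5, a fatty acyl reductase that makes suberin alcohols, had 14, 10 and 9 counts against 48, 64 and 46. The transporter ABCG6, which with related transporters is needed for normal suberin, had 78, 94 and 58 counts against 352, 324 and 446. The lipid transfer protein AT2G48130 had 264, 364 and 280 counts against 972, 804 and 1136. Of its 3438 exonic bases a stretch of 254 matches AT4G37500 at 96.1% identity. The GDSL genes AT1G74460 and AT2G23540 had mutant means of 3.05 ± 0.709 and 3.55 ± 0.948 CPM and wild-type means of 0.828 ± 0.300 and 0.955 ± 0.260 CPM (SD, n = 3).

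The suberin genes outside the rule missed it in different ways. RWP1, the feruloyl transferase that adds the phenolic part, rose from 14.6 ± 1.13 to 33.1 ± 2.28 CPM (SD, n = 3; edgeR adjusted p 0.000217), and its ratio of 1.98 lay just under the limit. FAR1, the most abundant of the listed reductases, rose from 242 ± 9.49 to 419 ± 24.1 CPM (SD, n = 3, log2 fold change 0.82, edgeR adjusted p 0.000613). The regulator MYB41, which activates suberin genes, had 2, 0 and 4 counts in the wild type and 16, 22 and 14 in the mutant (edgeR adjusted p 0.0106), a log2 fold change of 3.11 and a ratio of 3.47, and it missed the rule because its mutant mean did not reach 1 CPM. KCS20 and ABCG20 had log2 fold changes of -0.25 and -0.14, with edgeR adjusted p of 0.165 and 0.404. The endodermis genes MYB36, CASP1 and CASP2, which set up the Casparian strip in the cells that form suberin, were not called, with a summed level of 249, 326 and 273 CPM in the wild type and 280, 284 and 363 CPM in the mutant.

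**Figure D3:**
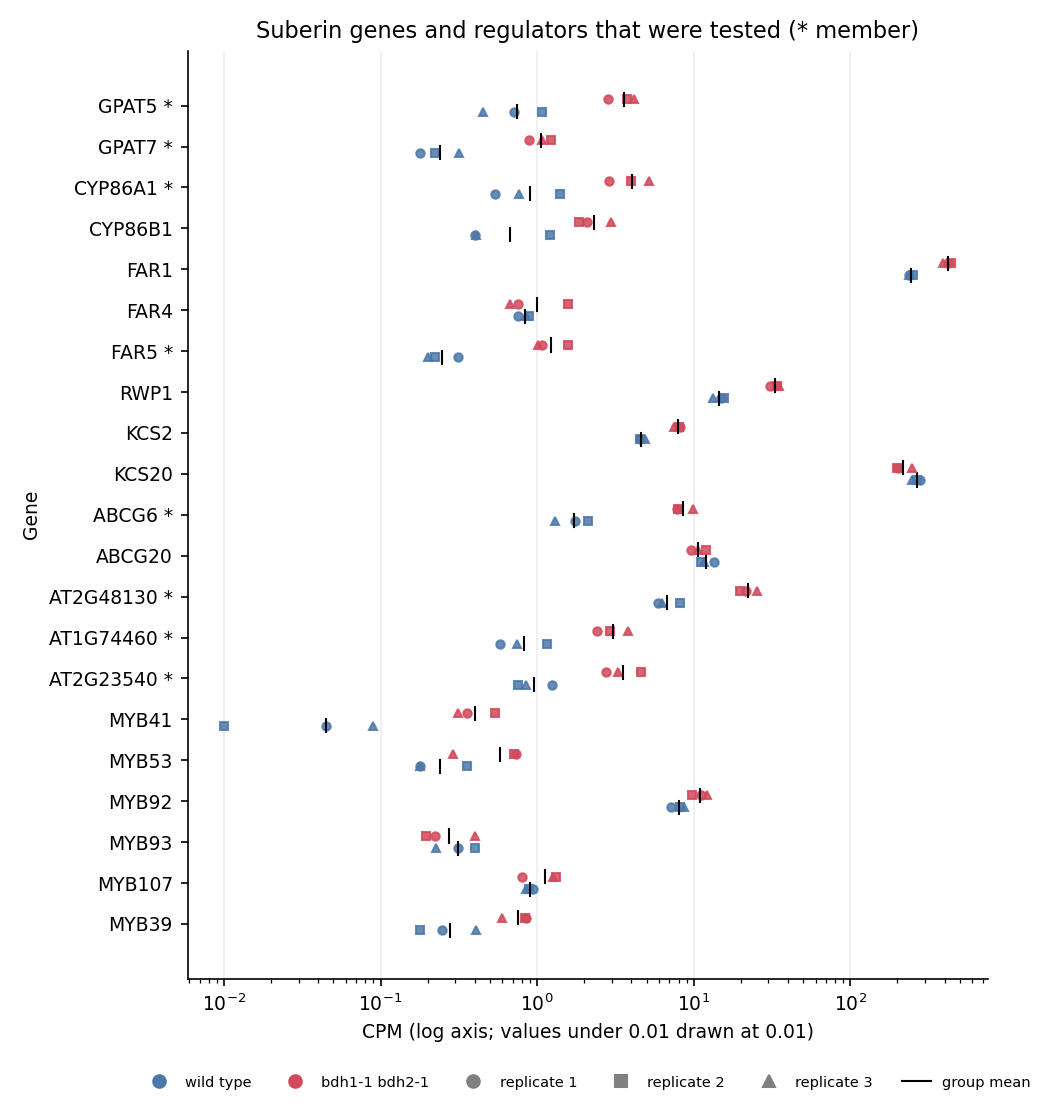
CPM (log axis) in each library of the 21 suberin genes and regulators that were tested, with members of the 158 marked by an asterisk; symbols mark replicates and black bars the group means. The mutant libraries lie above the wild type in the 8 members and in most of the rest, while the groups overlap in FAR4, KCS20, ABCG20, MYB53, MYB93 and MYB107.

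Wax and fatty acid genes were also among the members, and were named after their values were seen. CER4, a reductase that makes the primary alcohols of wax, had 0.00, 0.536 and 0.0899 CPM in the wild type and 3.42, 3.77 and 3.65 CPM in the mutant. ADS4, of the same desaturase family as ADS1, had 2.75, 6.70 and 4.31 CPM against 30.0, 33.2 and 37.7 CPM, a log2 fold change of 2.91. The peroxisomal thiolase KAT5, which acts in fatty acid breakdown, had a mean of 0.620 ± 0.185 CPM in the wild type and 4.36 ± 1.45 CPM in the mutant (SD, n = 3). The wild-type value of replicate 2 was the highest for CER4 and ADS4 but not for KAT5.

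Windows of 250 bases before the annotated start are shown for 5 members, to show examples of the AC element, which 3 of the 5 were picked for, a tandem pair that differs in it, and AIR1, which has no match to it. They were read from the RefSeq assembly TAIR10.1, and lie at chr2:12389892-12390141 on the minus strand for CYP710A4, chr4:16207957-16208206 on the minus strand for CER4, chr5:8033415-8033664 and chr5:8035440-8035689 on the plus strand for AT5G23830 and AT5G23840, and chr4:7438865-7439114 on the plus strand for AIR1. Sequences run 5′ to 3′ on the strand of the gene, and capitals mark a match on either strand to TATAAA (the TATA box), ACCTACC (an AC element, a sequence bound by MYB factors of phenylpropanoid genes), or CACGTG (the G-box).
CYP710A4: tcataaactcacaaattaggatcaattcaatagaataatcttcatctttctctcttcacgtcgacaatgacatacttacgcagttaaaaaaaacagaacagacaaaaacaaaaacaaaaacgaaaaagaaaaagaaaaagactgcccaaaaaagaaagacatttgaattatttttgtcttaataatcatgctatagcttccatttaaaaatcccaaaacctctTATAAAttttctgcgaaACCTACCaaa
CER4: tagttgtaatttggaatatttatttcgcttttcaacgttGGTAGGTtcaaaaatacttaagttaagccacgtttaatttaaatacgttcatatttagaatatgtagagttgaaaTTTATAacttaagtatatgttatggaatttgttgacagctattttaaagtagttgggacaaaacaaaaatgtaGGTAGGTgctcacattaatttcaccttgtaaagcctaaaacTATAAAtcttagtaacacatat
AT5G23830: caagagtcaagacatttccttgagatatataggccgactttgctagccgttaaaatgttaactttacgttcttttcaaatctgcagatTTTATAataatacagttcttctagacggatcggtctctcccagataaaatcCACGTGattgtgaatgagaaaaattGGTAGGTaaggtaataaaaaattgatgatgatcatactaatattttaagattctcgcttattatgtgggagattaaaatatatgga
AT5G23840: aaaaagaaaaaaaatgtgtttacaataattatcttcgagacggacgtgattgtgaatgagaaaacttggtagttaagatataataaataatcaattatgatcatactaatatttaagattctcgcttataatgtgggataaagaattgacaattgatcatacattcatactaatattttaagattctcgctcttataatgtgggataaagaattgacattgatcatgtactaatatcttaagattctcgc
AIR1: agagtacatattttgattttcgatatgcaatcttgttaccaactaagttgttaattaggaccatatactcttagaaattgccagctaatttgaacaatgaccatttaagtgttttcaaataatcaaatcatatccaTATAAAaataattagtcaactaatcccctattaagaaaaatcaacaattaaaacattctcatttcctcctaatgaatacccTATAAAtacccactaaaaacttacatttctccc

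CYP710A4 held TATAAA and ACCTACC close to its start, with first bases at -27 and -10. CER4 held ACCTACC at 2 places, -211 and -63. Among the windows of all 158 members 8 held ACCTACC, which is 5.06%, against 216 of 18245 expressed genes, or 1.18%. The 8 members were 4CL3, CYP710A4, AT2G41990, AT3G45680, CER4, XTH7, AT5G10770 and AT5G23830. The related ACCAACC was present in 3.16% of the members and 2.73% of the expressed genes, and the G-box in 8.23% and 7.51%. TATAAA was present in 56.3% of the members and 45.9% of the expressed genes. GAGAGAGA was present in 3.16% against 4.54%, and the telo box AAACCCTA in 4.43% against 3.56%. These matches describe letters only, and whether a factor binds there was not tested.

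Neighbours in the genome were the next feature that the rule did not use. Adjacent genes were both members in 7 runs of 2, all of them in tandem, so 14 members, or 8.86%, lay next to another member. Of all expressed nuclear genes 0.976% lay next to a member, and of the 99 genes of the mirrored rule 8.08% lay next to another of their own. The pairs were the legume lectins AT1G53070 and AT1G53080, the pseudogenes AT3G21030 and AT3G21040, AZI1 and EARLI1, AT4G12545 and AIR1, PELPK2 and PELPK1, AT5G23830 and AT5G23840, and AT5G33390 with the pseudogene AT5G33395. In 6 of the 7 pairs the genes resembled each other, at 70.1 to 89.4% identity over their best match, so reads of 1 copy may have been counted for the other. Members were spread over all 5 chromosomes, with 30, 17, 37, 25 and 49 on chromosomes 1 to 5.

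The AZI1 to AIR1 region of chromosome 4 carried 2 of the 7 pairs. AIR1, a gene first known for its induction by auxin in root cultures, had 2.46, 7.33 and 3.84 CPM in the wild type and 33.6, 34.3 and 35.5 CPM in the mutant. Its neighbour AT4G12545 had 0.580, 2.23 and 0.854 CPM against 10.1, 11.0 and 10.7 CPM. The 2 genes shared their order in the wild type, with replicate 2 highest and replicate 1 lowest, and their upstream windows were identical in 222 of 264 alignment columns, or 84.1%. EARLI1, a lipid-transfer-like gene next to AZI1, had 5, 11 and 9 counts against 32, 31 and 74. Between the pairs, AT4G12510 and AT4G12520 were higher with log2 fold changes of 1.49 and 1.36 (edgeR adjusted p 0.00563 and 0.00289), although they were not members, while AT4G12540 was not called, with 0.22. On the outer sides ORP2B and CPR1 had log2 fold changes of 0.09 and -0.04, with edgeR adjusted p of 0.554 and 0.785.

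AT5G23830 and AT5G23840, of the MD-2-related lipid recognition family, had 6.30, 14.5 and 9.17 CPM against 40.4, 40.4 and 43.0 CPM, and 2.86, 6.70 and 2.88 CPM against 24.5, 24.4 and 24.4 CPM. Replicate 2 was again the highest wild-type library in both. Their upstream windows printed above were identical in 51.4% of alignment columns, and none of the motifs marked in AT5G23830 had an exact match in that of AT5G23840. The close variants gacgtg and ggtagtt lie there, among bases that resemble those around the G-box and AC element of AT5G23830. PELPK1, a proline-rich protein of the cell wall, had 156, 182 and 162 counts against 542, 640 and 509, and its neighbour PELPK2 had 10, 16 and 18 counts against 42, 62 and 66. In the pair AT5G33390 and AT5G33395 the genes showed no match to each other, and both were even across the wild-type libraries, with 30, 29 and 31 counts for the first.

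The genes next to the members were examined in the same fit. Of the 180 tested genes that lay beside a member without being one 48 were higher in edgeR's test, which is 26.7% against 12.1% of all tested genes, and 14 were lower, which is 7.78% against 11.3%. Genes beside expressed genes as a whole were higher in 11.5% of cases. Counted by pair, the neighbour was higher in 15 of 40 divergent pairs, 26 of 102 tandem pairs and 7 of 39 convergent pairs. It was higher in 11 of 26 pairs of the same family or product name. In pairs that shared neither and did not overlap it was higher in 35 of 143, or 24.5%. Families were assigned by words in the product names, so some related genes fell in this last group. Among them were ST4C with ST4B, which was higher, and ADS1 with the desaturase AT1G06090, which was not called. The 24.5% therefore does not stand for unrelated genes alone. The counts depended on the libraries: without mutant replicate 1 the neighbours numbered 23 of 181, or 12.7%, with 5.06% of all tested genes higher, without wild-type replicate 1 they numbered 27 of 185, or 14.6% against 6.28%, and without wild-type replicate 3 they numbered 30 of 184, or 16.3% against 6.88%.

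Some of these neighbours rose as steeply as members. AT3G29252, next to SDR4, had a mean of 0.0223 ± 0.0223 CPM in the wild type and 0.863 ± 0.186 CPM in the mutant (SD, n = 3), just short of the required 1 CPM. EDA4, a lipid transfer protein gene that shares its upstream region with AT2G48130, rose from 5.07 ± 1.02 to 14.5 ± 2.25 CPM (SD, n = 3; edgeR adjusted p 0.000855). WOX12, a homeobox gene of root founder cells, lies beside the peroxidase AT5G17820 and rose from 0.366 ± 0.175 to 1.21 ± 0.457 CPM (SD, n = 3, edgeR adjusted p 0.0151). PROPEP4, which encodes a precursor of an elicitor peptide, lies beside the member PEP7 of the same family and had a log2 fold change of 1.27 (edgeR adjusted p 0.00829). These 4 were named after their values were seen.

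The triterpene clusters gave a second kind of neighbourhood, in which members were near each other without touching. MRN1, the marneral synthase, had 74, 242 and 94 counts in the wild type and 1121, 1626 and 1241 in the mutant, and CYP705A12, a P450 of the same cluster, had 80, 114 and 78 counts against 402, 330 and 380. They lie 28091 bases apart on chromosome 5 with 4 annotated genes between them. The P450 CYP71A16 between them rose from 0.880 ± 0.789 to 2.83 ± 0.469 CPM (SD, n = 3, edgeR adjusted p 0.0308), as did AT5G00580, with a log2 fold change of 1.60 (edgeR adjusted p 0.000546). The uncharacterized AT5G42530, a member with 6, 34 and 13 counts against 606, 542 and 400, lies on the same side of the cluster as CYP705A12. Of the 3 tested genes between them, XRN2 and AT5G42560 had log2 fold changes of -0.25 and -0.17, with edgeR adjusted p of 0.289 and 0.252, and AT5G42570 was higher with 0.52 (edgeR adjusted p 0.00698).

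The thalianol cluster held 1 member. THAS1, the thalianol synthase, had 248, 310 and 205 counts against 636, 677 and 627, and met the rule narrowly. The P450 genes CYP705A5 and CYP708A2 of the cluster had log2 fold changes of 0.79 and 0.62 (edgeR adjusted p 0.0234 and 0.0258), and the acyltransferase-like AT5G47980 had 0.83 (edgeR adjusted p 0.156). AT5G47950, an acyltransferase gene of the same family that lies near the cluster and was not on the list, rose from 13.1 ± 4.49 to 35.8 ± 3.31 CPM (SD, n = 3), with a log2 fold change of 1.48 (edgeR adjusted p 0.00188). Of the 7 listed genes of both clusters 6 were higher, against 12.1% of all tested genes. Among the 6 were 3 of the 4 genes that were not members. This list too was written after the members had been seen. Without mutant replicate 1 and without wild-type replicate 3 the number of higher genes was 3 in each case.

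**Figure D4:**
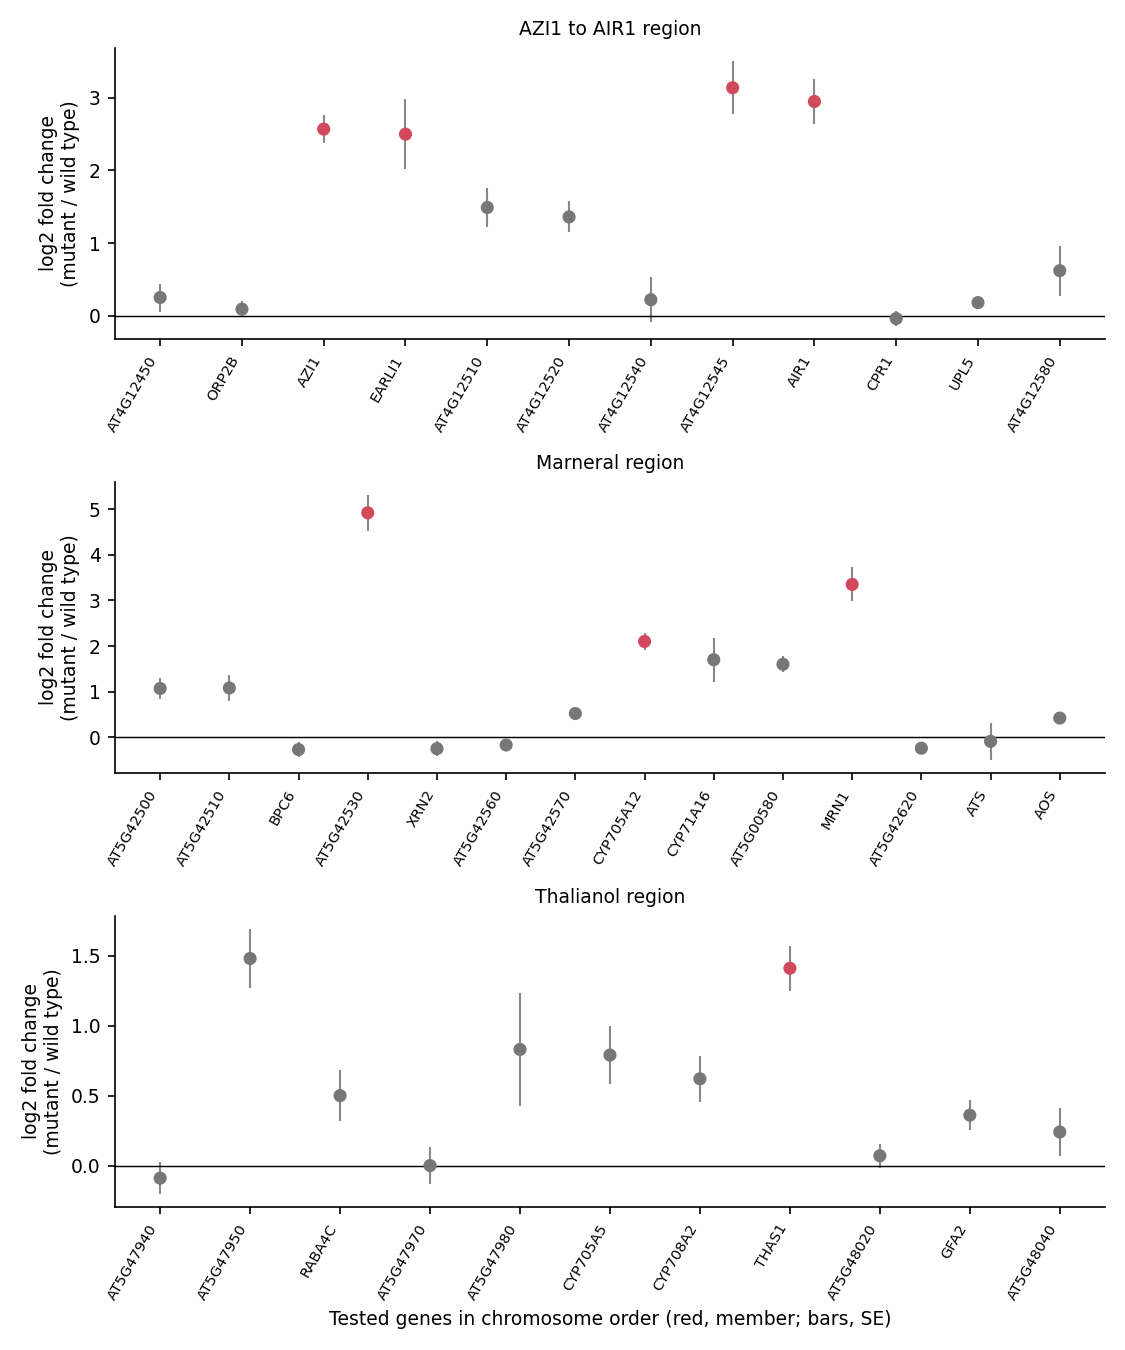
The log2 fold change (mutant over wild type, edgeR) of the tested genes in 3 stretches of the genome, in chromosome order, with members in red and bars for the standard error. AZI1, EARLI1, AT4G12545 and AIR1 lie at 2.5 to 3.14 in the upper panel, with ORP2B and CPR1 near 0 on the outer sides. CYP705A12 to MRN1 lie at 1.60 to 3.35 in the middle panel, with AT5G42570 at 0.52 and AT5G42620 at -0.24 beside them. Further off in that panel AT5G42530 lies at 4.92, and AT5G42500 and AT5G42510 lie at 1.07 and 1.08.

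Flavonoid genes were a smaller group. TT4, the chalcone synthase that opens the pathway, had 294, 334 and 240 counts in the wild type and 1270, 1590 and 1096 in the mutant. CHIL, a chalcone-isomerase-like protein that assists it, had 63, 78 and 66 counts against 168, 212 and 157, and MYB111, an activator of flavonol genes, had 28, 32 and 32 counts against 112, 114 and 105. All 3 were members, CHIL by the narrowest margin of all. Of the 11 listed flavonoid genes 6 were tested and 5 were higher, against 12.1% of all tested genes. Among the 5 were TT5 and FLS1, with log2 fold changes of 0.66 and 1.40 (edgeR adjusted p 0.0084 and 0.00981). TT7 was not called, with -0.48 (edgeR adjusted p 0.0732), and F3H had 0 counts in all libraries but mutant replicate 3, which had 1. This list was written after the members had been seen.

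Genes of the mustard-oil defence were present among the members as well. MYB28, the activator of aliphatic glucosinolate synthesis, had 22, 22 and 14 counts in the wild type and 104, 126 and 120 in the mutant. TGG2, a myrosinase that splits glucosinolates, had 290, 266 and 284 counts against 1290, 1056 and 866, and ESM1, which steers the breakdown towards isothiocyanates, had 114, 68 and 108 against 478, 424 and 236. Mutant replicate 3 of ESM1 lay well below the other mutant libraries. The list these genes came from was written after the members had been seen. Of its 7 genes 5 were tested, and the 3 members were higher but 0 of the 2 other tested genes. Over all tested genes 12.1% were higher. The regulators MYB29 and MYB76 had 0 counts in all libraries. The epithiospecifier gene ESP was not called, with a log2 fold change of -0.67 (edgeR adjusted p 0.404). The related myrosinase TGG1 was far more abundant and was not called, with 314 ± 61.5 CPM in the wild type and 332 ± 5.92 CPM in the mutant (SD, n = 3, edgeR adjusted p 0.562). ESM1 and GLIP4, a GDSL lipase gene with 70, 63 and 53 counts against 220, 193 and 267, lie near each other on chromosome 3 with 1 gene between them.

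A few members act in chromatin, meristems or meiosis, and these were also named after their values were seen. CHR23, an ATPase of the SWI/SNF family, had 442, 312 and 458 counts in the wild type and 1125, 1415 and 947 in the mutant. It was the only member in a list of 22 SWI/SNF subunits, of which 2 were higher and 5 lower, the 2 mutated loci among the lower ones. Over all tested genes 12.1% were higher and 11.3% lower. STM, the homeobox gene that maintains the shoot meristem, had 562, 483 and 445 counts against 1224, 1048 and 1428. DMC1, the meiotic recombinase, had 5.22, 5.18 and 5.26 CPM against 15.3, 13.4 and 13.0 CPM, and MSH5, which acts in meiotic crossover formation, had 0.625, 0.670 and 0.764 CPM against 4.56, 4.16 and 3.32 CPM. In STM, DMC1 and MSH5 the wild-type libraries were close together, and in CHR23 replicate 2 was the lowest.

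The marker lists of other tissues, of photosynthesis and of salicylic acid defence did not contain members. As 0.863% of all expressed genes met the rule, this is near the background for lists so short. Of 5 root hair genes 4 were tested and 0 were called, with a summed level of 0.580, 5.21 and 0.989 CPM in the wild type and 1.96, 1.71 and 2.43 CPM in the mutant, so wild-type replicate 2 stood apart here too. The sums of the endodermis and root hair lists were highest in wild-type replicate 2 among the wild-type libraries, as were the levels of many members, and their part in the result was not tested. Of 10 seed maturation genes 5 were tested, 3 were lower and 0 higher. Their summed level was 1.43, 70.1 and 103 CPM in the wild type and 5.78, 7.58 and 5.41 CPM in the mutant, so the groups overlapped. In the floral list 2 genes were tested and 0 called. In the photosynthesis list 3 of 8 were higher and 3 lower. The salicylic acid defence list had 3 of 8 higher and 1 lower. Over all tested genes 12.1% were higher and 11.3% lower.

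The members were short genes. Their median exonic length was 1430 bases, against 1800 bases for the expressed genes, and 26.6% against 12.1% were under 1000 bases. The share of genes that met the rule fell from 2.29% up to 750 bases to 0.376% over 3000 bases. The median log2 fold change of all expressed genes in these length classes went the same way, from 0.20 to -0.27. When each library's trend over exonic length was taken out, the rule found 154 genes, and 143 of the 158 members remained. Of the lipid transfer proteins 10 met the rule in that case, and 12 genes lay beside another.

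**Figure D5:**
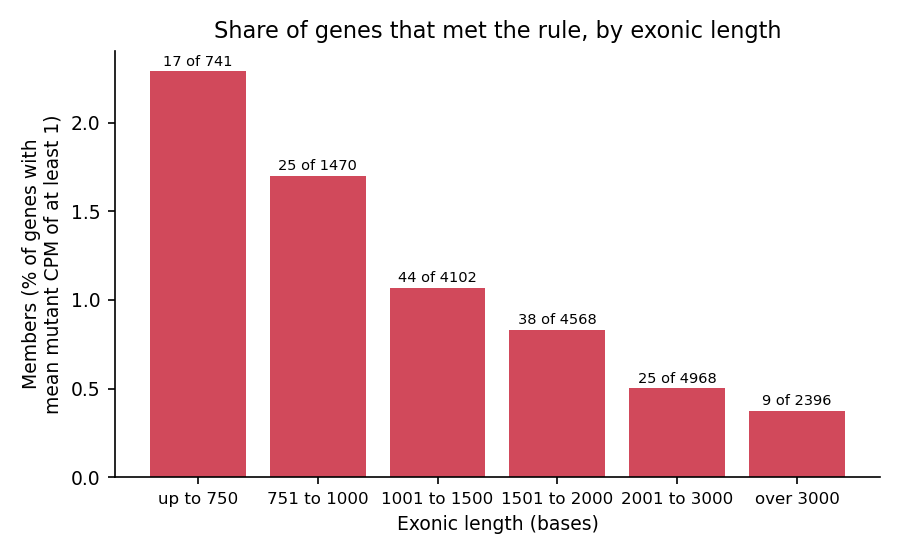
Share of genes with a mean mutant level of at least 1 CPM that met the rule (vertical, percent), by exonic length class in bases (horizontal), with the number of members and of genes printed over each bar. The share falls from 2.29% in the shortest class to 0.376% in the longest.

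Overlap and copies touched a minority of the members. An annotated gene on the opposite strand overlapped 17 members, or 10.8%, against 26.3% of the expressed genes, and 19 members overlapped a gene on either strand. A near-identical stretch in another gene, of at least 100 bases at 95% identity, was found for 8 members. Without these 8 members 150 were left, and without the overlapping genes 139. In edgeR's test all 158 members were higher with an adjusted p of at most 0.0187, which the rule largely brings about. In the authors' deposited table, which rests on the same counts, all 158 were higher and 156 had an adjusted p under 0.05, against 11.9% of the genes of that table higher at that threshold, and nothing is read from this either. The log2 fold changes of the members in the authors' deposited table had a median of 1.88 and ran from 0.08 to 5.06. The lowest in edgeR's fit was 1.24, and by the rule every member differed at least 2 times in these counts. Both statements rest on the counts that chose the members, so they do not judge the deposited value. The reason for the low deposited value was not tested.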

How the data were processed

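Per the submitters' processing notes, reads were handled with STAR 2.7.10b, featureCounts, Subread 2.0.3 and DESeq2 1.38 on the TAIR10 build. The libraries were strand-specific, per the labels' protocols, and the strand setting of the counting is not given in the sources used here. For the 6 libraries the authors deposited raw counts per gene, as whole numbers. The authors also deposited a comparison with a log2 fold change, a p-value with its adjusted value and a mean normalized count (a signal) per gene, per the file headers. Of the count values from 1 to 20, 74.8% were even, so counts may not stand for single molecules.

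CPM was computed from the column totals. Members are the genes chosen by the rule given in the report. Counts were fitted with edgeR 4.0.16 in R 4.3.3 (filterByExpr, TMM factors, glmQLFit and glmQLFTest, no covariate, Benjamini-Hochberg adjustment at 0.05, 20791 genes tested). Standard errors were derived from the F statistic and are approximate. The procedure was tested on simulated data. Names, biotypes, gene order, lengths and windows came from the RefSeq annotation of TAIR10.1, which held 37898 of the 38064 loci, and 166 were not in it. The count tables give no coordinates. Copies were searched with blastn 2.17.0.

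The members and lists were chosen with earlier results of these data known. Families were assigned by words in the product names, and 3 of the word patterns were corrected after they were seen to match unrelated names. The suberin, triterpene, flavonoid and glucosinolate lists were written after the members' values had been seen. Genes named by rule were the mutated loci, the 10 highest members, the 10 largest ratios, the 2 highest of each family or biotype with enough members, the 5 runs of highest summed level and the 3 genes on either side of the limit. The other genes were named after their values were seen. Alternatives were other scalings, minimum levels and ratios, a length correction, DESeq2 1.42.0, other filters, a replicate block and each library left out in turn.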

Additional observations from a re-analysis of the deposited data

How the results depend on the processing

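A ratio of 1.5 in place of 2 gave 419 genes by the rule and 279 by its mirror, with 17 that were not protein coding and 44 beside another. A ratio of 3 gave 58 and 26, with 6 beside another and 5 lipid transfer proteins. A minimum mean of 0.5 CPM gave 193 genes, 5 of them silent in the wild type, and a minimum of 2 CPM gave 118 genes, 8 of them beside another. A floor of 10 counts made 6 members silent. Scaling by TMM, RLE or upper-quartile factors gave 167, 167 and 180 genes, with 155, 154 and 157 of the 158 members among them. Leaving out 1 library gave 170 to 235 genes by the rule, 111 to 165 by its mirror, 0 to 2 silent members, 14 to 32 genes beside another, 23 to 58 higher and 7 to 17 lower neighbours. The highest counts by the rule and by its mirror, and the highest count of genes beside another, came without wild-type replicate 2, and the cause was not tested. The 158 members kept a higher call in all 6 such fits, and 156 did with DESeq2. With at least 10 counts in every sample 125 members were tested and 125 were higher. The rule chose the members on this contrast and largely brings these calls about, so nothing is read from them. In the main edgeR fit 12.1% of all tested genes were higher. The log2 fold changes of the 46 genes named by rule kept direction and side of the threshold in all 541 alternative values. Most of these genes are members, chosen on this contrast, so this too follows largely from the choice. The other genes named in the report were not part of that count.

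The replicate numbers did not pair the libraries: deviations from the group means correlated at 0.0226, -0.508 and -0.27 for replicates 1, 2 and 3, and 0 of 3 wild-type libraries correlated best with their own number. With the replicate number as a block all 158 members were higher, against 5.64% of all tested genes, which the rule largely brings about. In that fit edgeR called 2090 genes in place of 4882, and 29 neighbours were higher (16.1% against 5.64% of all tested genes) and 9 lower. Without mutant replicate 1 edgeR called 1811 genes, and without wild-type replicates 1 and 3 it called 2373 and 2682. Depth limits the weakest members, which had few counts in the wild type, and 3 libraries a group limit the rest.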
